A study of Lachancea kluyveri with 16 samples.

Results

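The comparison described here set Lachancea kluyveri cells that lacked SEF1 (sef1Δ) against wild-type cells (WT), both growing on glucose. Its members were the arrays titled sef1_YPD and WT_YPD, repeats 1 to 4 of each, which made 8 of the 16 arrays of the series. The WT strain was MATa ura3, and the mutant was derived from it by replacing SEF1 with a KanMX6 cassette, so both strains carried the same mating type and the ura3 marker. A single mutant strain was used. Both were precultured at 28 °C in YPD, a rich medium whose carbon source is glucose, then diluted to 0.2 OD600 per ml in fresh YPD and grown for 5.5 h at 30 °C. The remaining 8 arrays held the same strains moved to YPGly, where glycerol replaces glucose. The methods describe the repeats as biological replicates. Neither they nor the labels say what arrays of the same number share.

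Sef1 is a zinc cluster transcription factor of budding yeasts, and in Candida albicans it activates genes of iron uptake. The tricarboxylic acid (TCA) cycle oxidizes acetyl groups in mitochondria, passes electrons to the respiratory chain and supplies 2-oxoglutarate, from which glutamate is made. In Saccharomyces cerevisiae, glucose represses many genes of the cycle and of respiration, while the first steps up to 2-oxoglutarate stay in use for glutamate synthesis.

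Each array carried probes for 5316 genes. Values are log2 signals relative to the 75th percentile of the gene probes on the same array, so a change is relative to the bulk of the transcripts. The brighter probe stood for a gene, and 4255 genes were tested, a gene being admitted when no array of some group, of the 4 formed by strain and medium, fell under a processed signal of 200. Of these, 427 met the minimum only on glycerol, among them SEF1 (with 194 on 1 WT array in YPD), CIT3, IDP3, GSM1, ADR1 and RGT1 of the genes named below. A gene was called when limma's Benjamini-Hochberg adjusted p was at most 0.05 and the change at least 1.5-fold. Gene names are those of S. cerevisiae orthologs, and roles are given as known in that yeast. The 75th percentile of the signal ranged from 817 to 2410 over the 8 arrays. In repeats 1 to 4 it was 817, 1925, 850 and 1153 in WT and 968, 965, 2410 and 2337.5 in sef1Δ. Brightness was thus higher in WT in repeat 2 and higher in the mutant in repeats 3 and 4. The number of arrays, 4 a group, limits the precision. Replicate 4 of WT stood apart, with 90.5% of its probes well above background against 96.2% to 97.9% on the other 7. No pair of arrays held identical values.

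Differences between repeats were larger than differences between strains. Repeat number accounted for 66.4% of the variance of the 8 arrays over 4252 genes, strain for 12.3% and the remainder for 21.3%. These shares rest on 3, 1 and 3 degrees of freedom, and a term with more of them takes up more variance even without an effect. WT and sef1Δ arrays of the same number correlated across genes at 0.962 to 0.991, against 0.94 to 0.98 among the WT arrays and 0.942 to 0.979 among the mutant arrays. The repeat number therefore gives 4 differences per gene, sef1Δ minus WT, which are given beside each test. Repeats 1 and 2 lay on 1 slide and repeats 3 and 4 on another. On their slides, repeats 1 and 3 lay in row 1 and repeats 2 and 4 in row 2. Arrays of the same number thus shared slide and row, so this position and the repeat number cannot be told apart. Each strain kept 1 column of the slides, so column and strain cannot be told apart either.

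The deleted gene checks the labels. SEF1 (SAKL0F12342g) was at -1.67, -2.08, -1.42 and -2.57 in WT repeats 1 to 4, and at -8.61, -8.09, -9.56 and -9.17 in the mutant. The processed signal of the probe was 194 to 456 in WT and 2.47 to 4.06 in the mutant, all of whose 4 arrays missed the mark for being well above background. Its level was therefore at least 28.9-fold lower in sef1Δ (p = 0.0286 in a two-sided exact permutation test, which cannot give less with 4 arrays a strain). This bound sets the WT mean against the lowest signal counted as well above background on each mutant array.

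Loss of SEF1 was accompanied on glucose by lower levels of both subunit genes of mitochondrial NAD-dependent isocitrate dehydrogenase, the enzyme that turns isocitrate into 2-oxoglutarate. SEF1, IDH1 and IDH2 were the 3 genes called lower, 0.0705% of the 4255 tested, and 0 genes (0%) were called higher. At an unadjusted p under 0.05 limma gave 113 of the 4255 genes, fewer than the 1 in 20 that this threshold passes without any effect. The methods' t-test, taken at 1.5-fold and p up to 0.05 with no correction, called 16 genes lower (0.376%) and 1 higher (0.0235%), and after adjustment 1 and 0. With the repeat number as a block the calls were the same in number, 3 lower and 0 higher. Limma then gave 321 of the 4255 genes an unadjusted p under 0.05, more than 1 in 20. That rate is a rough guide, as the genes share the same arrays.

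IDH1 (SAKL0E07876g) was at 2.10, 2.01, 1.82 and 2.92 in WT and at 0.47, 0.27, 0.31 and 0.73 in sef1Δ. Its lowest WT array thus lay above its highest mutant array, and repeat 4 was the highest of both strains. IDH1 fell by 1.63, 1.74, 1.51 and 2.19 on the log2 scale within repeats 1 to 4, a fitted log2 change of -1.77 (SE 0.23, limma adjusted p = 0.0417). The second probe of IDH1 gave -1.77 as well.

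IDH2 (SAKL0G03520g) was at 1.88, 2.25, 1.85 and 2.68 in WT and at 0.51, 0.83, 0.51 and 0.92 in the mutant, again without overlap. Repeats 2 and 4 lay above repeats 1 and 3 in both strains, which is also the split by row of the slides. IDH2 fell by 1.37, 1.42, 1.34 and 1.76 within the repeats, a log2 change of -1.47 (SE 0.20, limma adjusted p = 0.0431). These within-repeat differences of IDH2 spanned less than its own WT levels did.

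Both calls depended on the spread between repeats. Leaving out 1 array at a time without the block, IDH1 kept its call in 1 of 8 fits, that without WT replicate 4, and IDH2 in 0 of 8, with limma adjusted p of 0.0116 to 0.268 for IDH1 and 0.0519 to 0.268 for IDH2. With the block, IDH1 and IDH2 were both called after leaving out any 1 of the 4 repeats (limma adjusted p of 0.000803 to 0.0436 and 0.00154 to 0.0482). With slide as a block, limma gave adjusted p of 0.0636 for IDH1 and 0.0845 for IDH2, and the log2 changes were -1.69 and -1.40 on slide 1 and -1.85 and -1.55 on slide 2. The log2 changes in the fits that left out arrays or repeats lay between -1.90 and -1.53 for IDH1 and between -1.58 and -1.30 for IDH2.

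ACO1 (SAKL0H24046g), the aconitase that makes isocitrate from citrate, came next in the ranking by p but was not called. It was at 3.42, 3.25, 3.39 and 3.74 in WT and at 1.65, 2.46, 1.49 and 2.38 in sef1Δ, so the strains did not overlap. The mutant arrays fell apart, repeats 1 and 3 lying well below repeats 2 and 4, again the split by row of the slides. The difference in ACO1 was -1.77, -0.78, -1.90 and -1.36 within the repeats, a log2 change of -1.45 (SE 0.24, limma adjusted p = 0.121, and 0.064 with the block). Without repeat 2 of both strains, ACO1 was called with the block (log2 change -1.68, limma adjusted p = 0.0130). That was the only call among the 4 blocked fits that left out 1 repeat (limma adjusted p of 0.013 to 0.627). Leaving out 1 array at a time without the block, ACO1 was called in 0 of 8 fits (limma adjusted p of 0.0912 to 0.503). SEF1, IDH1, IDH2 and ACO1 were the 4 genes (0.0940% of those tested) lower by 1.5-fold or more in every repeat, and 0 genes were higher to that extent in every repeat.

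**Figure D1:**
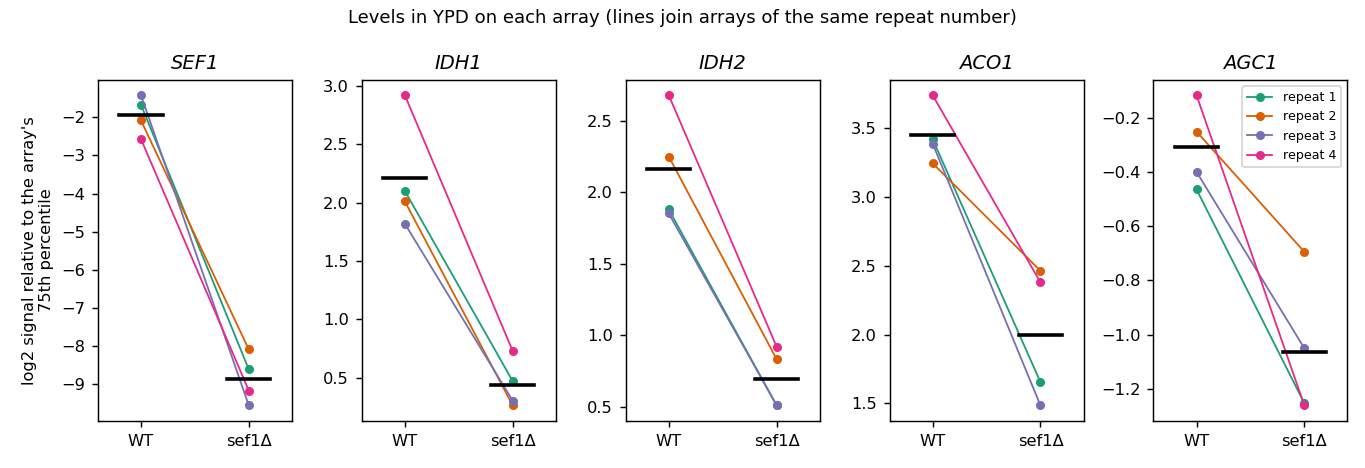
Levels of SEF1, IDH1, IDH2, ACO1 and AGC1 on the 8 arrays in YPD, as log2 signal relative to the 75th percentile of each array (each panel has its own vertical scale). Lines join the WT and sef1Δ arrays of the same repeat number and black bars are the means of 4 arrays. Every line falls, and no mutant array reaches the lowest WT array in any of the 5 panels.

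The other steps of the TCA cycle differed less. All 21 genes assigned to it were tested, of which 2 were called lower (IDH1 and IDH2) and 0 higher. CIT3, which entered through its glycerol arrays and was near background in YPD, is left out of the counts and medians that follow unless stated. The list held IDH1, IDH2 and ACO1 by its definition, and it was drawn up with earlier results of these data known. The log2 change was below 0 for 17 of the other 20, against 47.6% of all genes tested. The median of the 20 was -0.23 (-0.17 with CIT3) and that of all genes tested was 0.01. Scaling to control spots in place of the 75th percentile raised the median of all genes to 0.40 and put that of every list above 0 (0.20 to 0.58), so the sign of a list median is relative to the bulk of the genes. Both scalings subtract a constant per array, so a list median relative to all genes cannot differ between them. With CIT3 included, that of the TCA cycle was -0.18 under both. Quantile normalization, which can change it, gave -0.136. Within repeats 1 to 4 the median of the 20 TCA genes was -0.19, -0.15, -0.50 and -0.24. Of the TCA genes, 7 were lower in all 4 repeats, against 8.51% of all genes, and 4 had strains that did not overlap in the lower direction, against 1.32% of all genes. In the higher direction 0 of the 20 did, against 0.588%.

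Succinate dehydrogenase, which also belongs to the respiratory chain, stood next after the isocitrate branch. SDH3 (SAKL0E04136g), a membrane anchor subunit, was at 2.37, 2.33, 2.69 and 3.02 in WT and at 2.21, 1.83, 1.57 and 2.23 in sef1Δ. Its mutant arrays all lay below its WT arrays, though by little in repeat 1, where the difference was -0.17 (log2 change -0.64, SE 0.21, limma adjusted p = 0.999). SDH1 (SAKL0G11440g), the flavoprotein subunit, had differences of -0.66, -0.41, -0.85 and -0.48 within the repeats, while its unpaired groups overlapped (log2 change -0.60, SE 0.21, limma adjusted p = 0.999). SDH2, the iron-sulfur subunit, was lower in all 4 repeats by less (-0.40), and SDH4 in 3 of 4 (-0.32). None of the 4 subunit genes was called.

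Citrate synthase gave no stable difference. CIT1 (SAKL0D09152g), the mitochondrial enzyme, was at 3.08, 3.47, 2.55 and 2.06 in WT and at 2.08, 3.12, 1.58 and 3.01 in the mutant. CIT1 was lower in repeats 1 to 3 and higher by 0.95 in repeat 4, with a log2 change of -0.34 (SE 0.39). CIT3 was well above background on 2 of the 8 arrays, so no change is given for it.

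The oxidative steps after isocitrate were near 0 in most cases. KGD2, the second subunit of 2-oxoglutarate dehydrogenase, was lower in all 4 repeats (-0.19, -0.20, -0.35 and -0.38) without being called. The log2 changes of KGD1 (-0.17), its first subunit, LPD1 (-0.17), the lipoamide dehydrogenase it shares with other complexes, and FUM1 (-0.17), fumarase, were each of about that size. LSC1 (0.21) and LSC2 (0.19), the subunits of succinyl-CoA ligase, and MDH3 (0.13), a malate dehydrogenase of peroxisomes, lay above 0. MDH1 (-0.03), MDH2 (-0.05) and IDP1 (-0.08) differed by less than their SE. IDP1 and IDP3 encode NADP-dependent isocitrate dehydrogenases, which are separate from the IDH1 and IDH2 enzyme. The 2 probes of IDP3 disagreed in sign (-0.52 and 0.63).

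**Figure D2:**
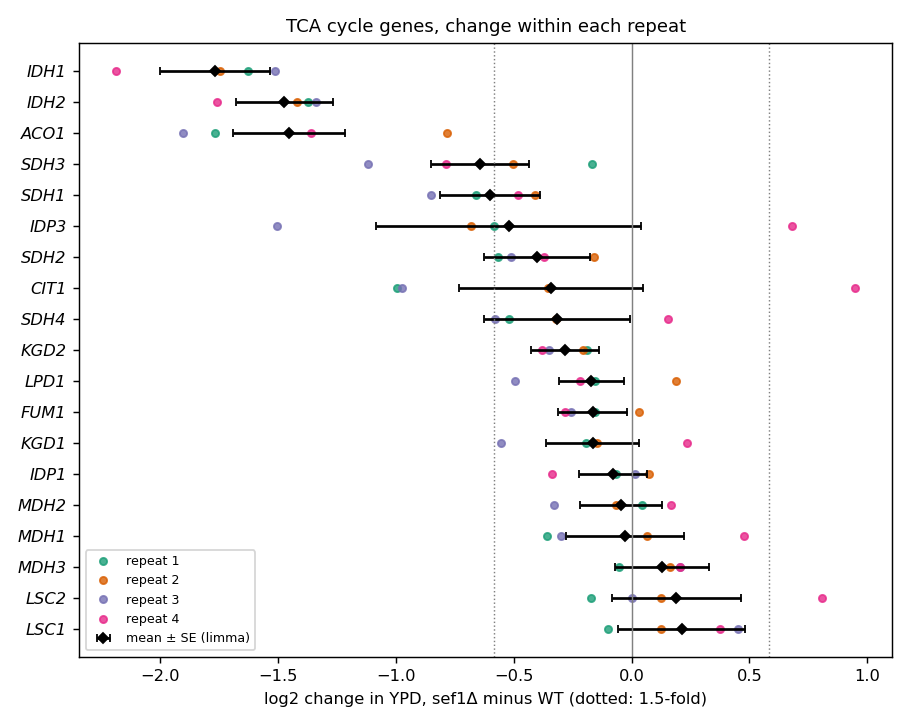
Log2 change in YPD, sef1Δ minus WT, of 19 TCA cycle genes (CIT3, near background, is among those not plotted), ordered by the fitted change. Coloured points are the differences within repeats 1 to 4, black diamonds the means with limma's SE, and dotted lines mark 1.5-fold. IDH1, IDH2 and ACO1 have all 4 points beyond the lower dotted line.

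Beyond the cycle, the genes with the smallest p among those lower by 1.5-fold or more included a pair of mitochondrial carriers. AGC1 (SAKL0H24442g), which exchanges aspartate and glutamate across the inner membrane, was at -0.46, -0.25, -0.40 and -0.12 in WT and at -1.25, -0.69, -1.05 and -1.26 in sef1Δ. Its strains did not overlap, and the second probe of AGC1 gave a larger change (-0.92) than the first (-0.76, SE 0.16), but the limma adjusted p was 0.779. LEU5 (SAKL0A09306g), needed for coenzyme A in mitochondria, had differences of -0.27, -0.45, -0.62 and -1.08 (log2 change -0.60, SE 0.17), and its second probe gave -0.24. Of the 18 mitochondrial carrier genes tested, 0 were called, 9 lay below 0 and the median was -0.03. MPC2, a subunit of the mitochondrial pyruvate carrier, had the highest change among them (0.55, SE 0.32), with 1.62 in repeat 4 and -0.24 to 0.48 in the others.

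The rest of that group had no shared role in the names available. TOS1 (SAKL0H10692g), a cell wall protein, was lower in every repeat (-0.43, -0.45, -0.62 and -0.86). VPS35, a retromer subunit, differed by -1.31 in repeat 3 and by -0.13 in repeat 2. AIM4 (-0.89 by 1 probe and -0.01 by the other) rested on a single probe. SAKL0E03102g, which has no name in the tables used, had a log2 change of -0.67. Limma's adjusted p was 0.999 for each of these 4 genes.

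**Figure D3:**
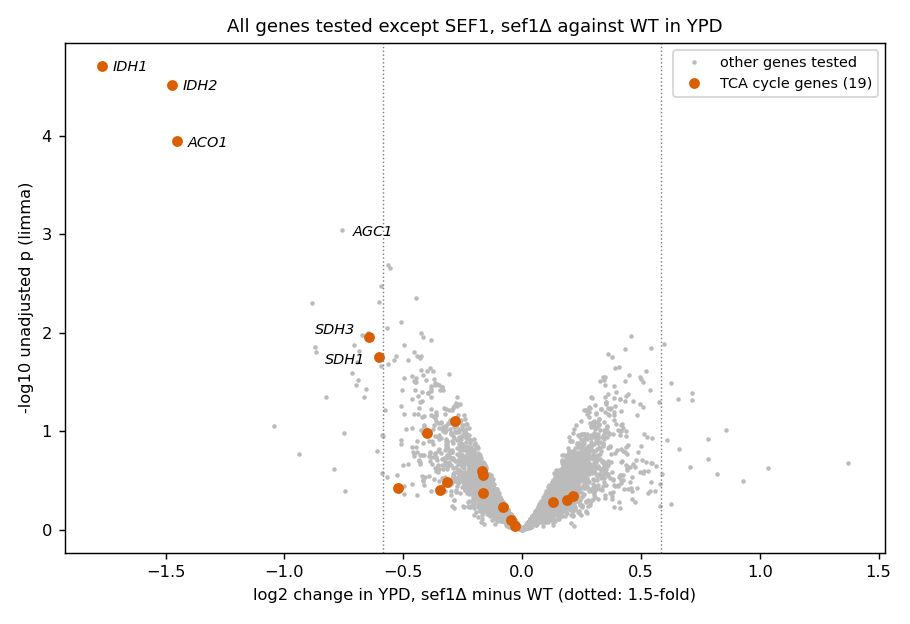
Fitted log2 change in YPD (horizontal axis, sef1Δ minus WT) against -log10 of limma's unadjusted p (vertical axis) for every gene tested except SEF1, whose point would lie far off the scale. Orange points are the same 19 TCA cycle genes as in the plot of changes within each repeat, and dotted lines mark 1.5-fold. IDH1, IDH2 and ACO1 stand apart at the upper left, and no gene stands apart on the right.

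No gene was called higher by limma. The smallest limma adjusted p among genes with a positive change was 0.999 without the block and 0.475 with it. By 1.5-fold alone, without a test, 17 genes (0.400%) were higher and 33 (0.776%) lower. Among the higher ones, NOP16 and RSA3, which act in assembly of the large ribosomal subunit, differed most in repeat 3. RSA3 differed by 0.45, 0.09, 2.14 and 0.18, and NOP16 by 0.82, 0.11, 1.54 and 0.40. YDR248C, a probable gluconokinase, was higher in all 4 repeats (0.21, 1.04, 0.47 and 0.66). The log2 change of YDR248C was 0.60 (SE 0.20), with a limma adjusted p of 0.999.

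The remaining high values came mostly from repeat 4. GUT2 (SAKL0E15114g), the mitochondrial glycerol 3-phosphate dehydrogenase, was at 1.04, 0.70, 0.64 and -0.22 in WT and at 0.44, 0.82, 1.01 and 2.54 in sef1Δ. In GUT2 the fourth WT array was thus the lowest of all 8 and the fourth mutant array the highest. GSM1 (SAKL0D05236g), a zinc cluster protein, was at 0.28 on the fourth mutant array and at -3.42 to -1.53 on the other 7. ADR1, an activator of genes for growth without fermentable sugar, differed by 1.73 in repeat 4 and by -0.52 to 0.31 in repeats 1 to 3. RGT1, a regulator of hexose transporter genes, differed by 2.23 in repeat 4 and by -0.41 to 0.42 in the others.

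Whole lists showed the same split. Of 18 tested genes of sugar uptake and use, 10 of which met the signal minimum only on glycerol, 9 were higher by 2-fold or more in repeat 4, and 0 in each of repeats 1 to 3. Their median difference was -0.22, -0.19, -0.20 and 1.07 within repeats 1 to 4. The median over the fitted changes was 0.11 and 5 of the 18 lay below 0, but without repeat 4 of both strains 17 of 18 did. For 16 tested genes of gluconeogenesis, the glyoxylate cycle and the use of acetate and glycerol (7 of them past the minimum only on glycerol), the median difference was -0.35, -0.01, -0.26 and 0.79. The number of these below 0 went from 7 to 12 of 16 without repeat 4. In none of these lists was a gene called in either direction. WT replicate 4 is also the array with fewer probes well above background, and the part of that array in these values was not tested beyond leaving it out.

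Ribosomal protein genes and glycolytic genes lay on the other side of 0 in repeat 4. The 71 tested genes of cytosolic ribosomal proteins had median differences of 0.37, 0.39, 0.17 and -0.59, with 71 of 71 below 0 in repeat 4 and 0 of 71 in repeat 1. Their fitted median was 0.09 and 16 of 71 lay below 0, a count that became 0 without repeat 4. Glycolysis and fermentation, 21 genes, had fitted changes below 0 in 21 of 21 (median -0.20). The medians within repeats 1 to 4 were -0.03, 0.34, -0.44 and -0.67, and without repeat 4 the count was 15 of 21. Quantile normalization put the glycolysis median at -0.05. ADH3 (SAKL0E02838g), a mitochondrial alcohol dehydrogenase, had the lowest change of that list (-0.45, SE 0.18) and was lower in all 4 repeats, by 0.31 to 0.62.

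Respiratory chain genes other than those of succinate dehydrogenase lay mostly above the bulk of the genes. The 4 succinate dehydrogenase genes, all below 0, were counted with the TCA cycle and are not in this list. Of its 23 tested genes of the chain and the ATP synthase, 22 lay above 0, with a median of 0.19 (0.18 above that of all genes), and 10 were higher in all 4 repeats, against 9.26% of all genes. The medians within the repeats were 0.12, 0.07, 0.20 and 0.42. Without repeat 4, 19 of 23 lay above 0. QCR6 (SAKL0F07370g), a subunit of the cytochrome bc1 complex, had the highest change (0.50, SE 0.36). The exception was NDE2 (SAKL0E05302g), an external NADH dehydrogenase, which was lower in repeats 1 to 3 (-0.50, -0.60 and -0.51) and near 0 in repeat 4 (0.07). None of the 23 was called or reached 1.5-fold.

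The other lists were closer to the bulk of the genes. Mitochondrial ribosomal proteins (24 tested) had a median of 0.13, and 18 chaperone and stress genes one of 0.10. HSP78, a mitochondrial chaperone, had the highest change of the latter (0.58), but ranged from -2.49 to 2.16 over the WT arrays alone. The 11 genes listed under glutamate and lysine synthesis had a median of 0.08 and 0 calls. Not all of them act in that synthesis, as the list also held GDH2 and DLD1, a D-lactate dehydrogenase. GDH2, an NAD-dependent glutamate dehydrogenase, had the lowest change (-0.50, SE 0.38) of the 11. Of 7 tested carbon and stress regulators, CAT8 was lowest (-0.38), fitted without WT replicate 3, whose spot was an outlier, and its second probe gave 0.28.

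Iron genes are the known targets of Sef1 in C. albicans. Of 29 listed genes of iron uptake and use, 24 were tested in L. kluyveri, 0 were called, 17 lay below 0 and the median was -0.11. FRE5 (SAKL0F14740g), of the ferric reductase family, was lowest with differences of 0.00, -1.01, -0.72 and -0.54 (log2 change -0.57, SE 0.17, limma adjusted p = 0.999). YFH1, the frataxin of iron-sulfur cluster assembly, had the highest change (0.26, SE 0.20) among those well above background on all 8 arrays. HMX1, a heme oxygenase that was well above background on 7, had a larger one (0.59, SE 0.51) and differed by 2.17 in repeat 4 and by -0.80 to 0.96 in the others. HMX1 was named after its values were seen.

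Genes near sites of Sef1 binding were taken from the study's chromatin immunoprecipitation on glucose, by membership alone. Of 385 listed genes, 368 were on the array and 339 were tested. IDH1 and IDH2 were called lower among them and 0 genes higher, against 3 of 4255 (0.0705%) and 0 over all genes, SEF1 itself being the third. The median change was -0.01, and 177 of 339 (52.2%) lay below 0, against 47.6% of all genes. The genes beside the 50 strongest glucose peaks, 47 of them tested, had a median of -0.14, with 31 of 47 below 0, and 5 were lower and 0 higher by 1.5-fold or more, against 0.776% and 0.400% of all genes. Those 5 were IDH1, IDH2, ACO1, SDH3 and SDH1, the same genes as described for the TCA cycle, so this count adds no separate measurement. Genes bound on glycerol only (318 tested) had a median of -0.09 and 0 calls. Of these, 201 (63.2%) lay below 0, a larger share than among the genes bound on glucose. Within repeats 1 to 4 the median of the strongest-peak genes was -0.16, -0.09, -0.20 and 0.05.

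**Figure D4:**
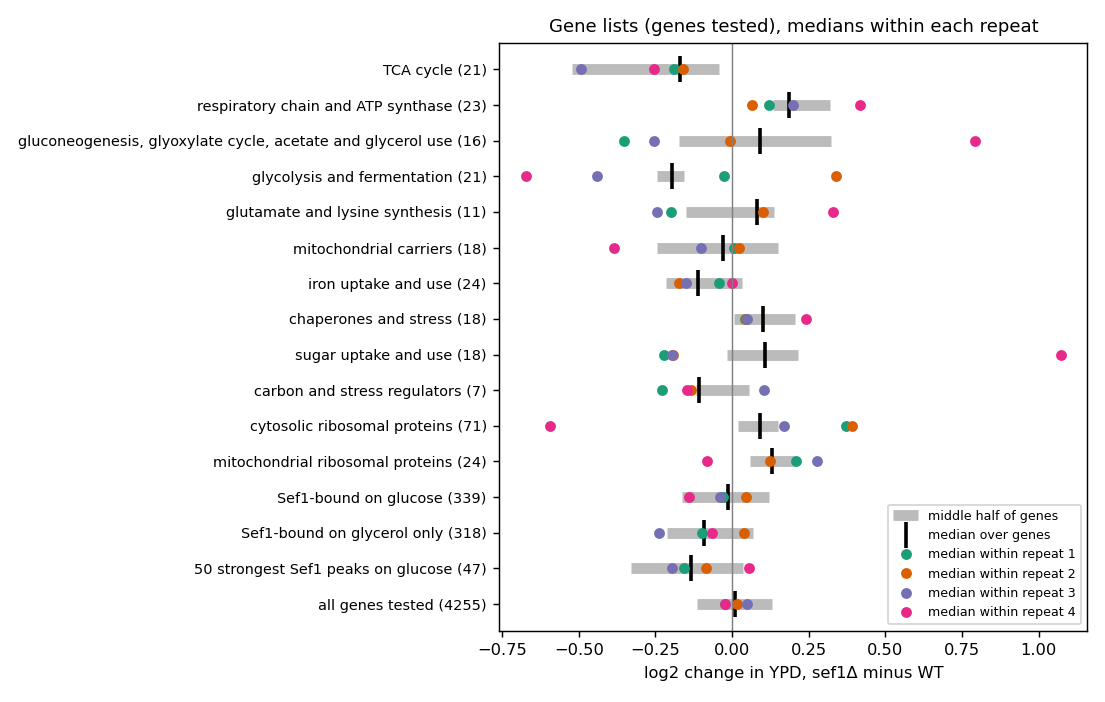
Log2 change in YPD, sef1Δ minus WT, for each gene list (number of genes tested in brackets) and for all genes tested. Grey bars span the middle quartiles of the fitted changes, black ticks mark the median, and coloured points the median difference within each repeat. Sugar uptake and use reaches 1.07 in repeat 4 alone, cytosolic ribosomal proteins reach -0.59 there, and the TCA cycle lies below 0 in all 4 repeats at this scaling.

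The mutant's values on glucose were set beside those on glycerol for the same genes, using the 8 YPGly arrays. IDH1 had a log2 change of -2.66 on glycerol and IDH2 one of -2.37, both called by limma (adjusted p of 0.0155 and 0.00116) among 21 genes lower (0.494%) and 31 higher (0.729%) there. With the repeat number as a block the glycerol counts were 89 and 134. The glycerol effect minus the glucose effect was -0.89 for IDH1 and -0.90 for IDH2 (limma adjusted p 0.622 and 0.317 over all genes). With the repeat number as a block, limma's adjusted p was 0.320 for IDH1 and 0.0519 for IDH2, the latter just over the threshold. The media were thus not shown to differ for either gene, and for IDH2 the margin depended on the block. For ACO1 the change on glycerol was -0.79, which limma called only with the block (adjusted p = 0.0458, against 0.182 without it), and the difference between media was 0.67 (limma adjusted p = 0.580). Over all genes, 28 (11 toward lower and 17 toward higher on glycerol, 0.259% and 0.400%) had an effect that differed between media. The count was 57 with the repeat number as a block. Of the 28, 1 was past 1.5-fold in YPD.

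ADH3 (SAKL0E02838g) was the clearest case among the genes named here. Its change was -0.45 on glucose and -3.22 on glycerol, a difference of -2.77 (limma adjusted p = 6.49e-05). The pattern was not particular to it. Another gene annotated ADH3 (SAKL0B08184g), named after its values were seen, changed by -0.44 on glucose and -2.44 on glycerol. YDR248C went from 0.60 on glucose to -0.61 on glycerol, a difference of -1.20 (limma adjusted p = 0.0488), although neither change was called on its own without the block. With the block the glycerol change of YDR248C was called (limma adjusted p = 0.0396) and the glucose change was not (0.560).

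**Figure D5:**
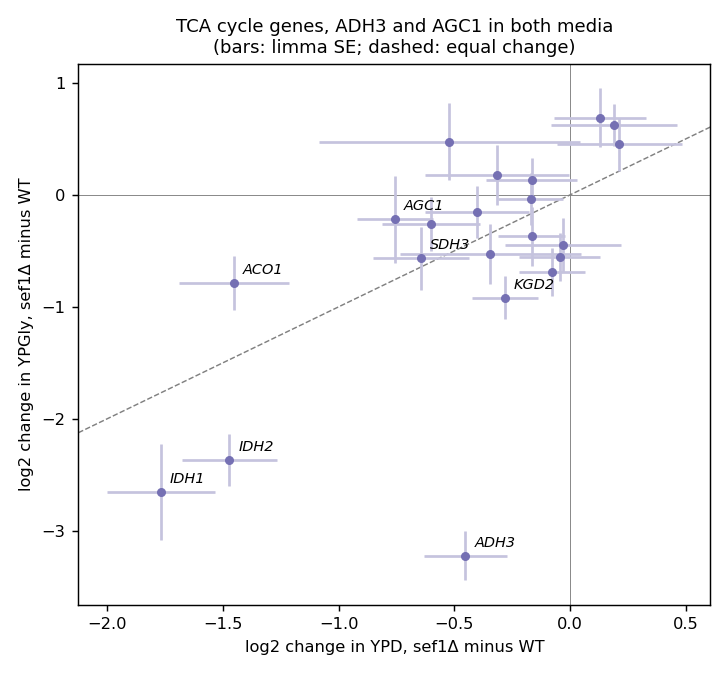
Log2 change, sef1Δ minus WT, in YPD (horizontal axis) and in YPGly (vertical axis) for 19 TCA cycle genes, ADH3 and AGC1, with limma's SE as bars. The dashed line marks equal change in both media. IDH1 and IDH2 lie below the line by 0.89 and 0.90, ACO1 lies above it, and ADH3 is far below it near the glucose value of -0.45.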

How the data were processed

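RNA of WT and sef1Δ cells was reverse transcribed from oligo(dT), labelled with 1 Alexa dye and hybridized to custom Agilent arrays, and the authors read the images with Agilent Feature Extraction 10.5.1.1. The deposited processed signals are intensity values on a linear scale, after the scanner software's background correction and before scaling between arrays. Median spot and background intensity served 1 alternative. The authors' value table, also deposited, holds log2 values scaled to the 75th percentile. Its values differed from those used here by a constant per array and served as an alternative. The deposited scanner flags were used as given.

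Processed signals were divided by the 75th percentile of their array and taken to log2, leaving out 6 outlier spots on the 8 arrays. Of 5316 genes, 5304 had 2 probes, and the brighter over all 16 arrays stood for the gene. Genes with a processed signal of at least 200 on every array of any of the 4 groups were tested (4255, 427 of them through YPGly groups alone), of which 4198 were well above background on all 8 arrays. For 31 of the tested genes the probe name lists another gene sharing sequence. Names from the study's tables, held here in part, matched 2242 of the tested genes. No genome was used.

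Strains were compared with limma 3.58.1 in R 4.3.3 on 8 arrays without covariates, and the media with a fit over 16 arrays. The methods' unpaired t-test was an alternative. The fits were tested on simulated data. WT and mutant arrays of the same number departed from their group means together (correlations 0.629, 0.712, 0.365 and 0.413, and -0.542 to 0.114 for other numbers), so the repeat number was taken to pair the arrays, and blocked values stand beside a result only where they change it.

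Genes named were SEF1, genes called with or without the block, the 21 TCA genes, the 10 with the smallest p in each direction past 1.5-fold, and the extremes of each other list, in the last 2 cases only where all 8 arrays were well above background. Some genes that this rule names are not reported here. The members and lists were chosen with earlier results of these data known.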

Additional observations from a re-analysis of the deposited data

Results flagged for a closer look

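Over 119 groups of 4 arrays (levels of the named genes and 3 measures of array quality), 8 had an array far from the other 3. Chance alone gives about 1 in 20, so the share of flags was near that of chance. That rate is a rough guide, as many of the genes were picked as extremes in these data and all share the same arrays. Of the 8 flags, 3 were on WT replicate 4 and 3 on sef1Δ replicate 4. On sef1Δ replicate 4, YMR291W, a probable kinase, was at 0.76 (others -0.86 to -0.82), LSC1 at 2.34 (others 1.36 to 1.42) and MPC2 at 2.05 (others 0.58 to 0.78). On WT replicate 4, DLD1, a D-lactate dehydrogenase, was at -1.10 (others -0.11 to 0.07), MRPL32, a mitochondrial ribosomal protein, at -1.0 (others -0.75 to -0.70), and 90.5% of probes were well above background (others 96.3% to 97.5%). RSA3 was at -3.29 on WT replicate 3 (others -2.08 to -1.87). On sef1Δ replicate 3 it was at -1.14, the highest of the mutant arrays (others -1.99 to -1.42). Its difference of 2.14 in repeat 3 thus rests on both arrays. FRE5 was at -1.12 on sef1Δ replicate 1 (others -1.53 to -1.47).

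For 2 of the named genes the effect of the deletion differed between media by limma's interaction term. The effect on glycerol minus that on glucose was -2.77 for ADH3 (SAKL0E02838g) and -1.20 for YDR248C.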

How the results depend on the processing

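SEF1 stayed lower and called under all 32 alternatives that gave a value. It gave none where probes had to be well above background on every array, when 0 genes were called lower, or where the signal minimum had to be met in YPD, when IDH1 and IDH2 were the 2 called. The count of genes lower went from 3 to 1 (SEF1) under median scaling, control spot scaling, normexp background correction, the mean of the probes, the dimmer probe, slide as a block, only slide 1, only slide 2 and the methods' t-test after adjustment, and to 16 with that test uncorrected, which gave 1 gene higher. Leaving out arrays or repeats gave 1 to 4 lower and 0 higher. The adjusted p of IDH1 and IDH2 passed 0.05 in 38 cases, while both stayed below -1.0 in log2 throughout. The replicate block gave 3 lower and 0 higher and changed no call in YPD. Of 55 named genes not called, 10 were called under some alternative. ACO1 was called under 4, and each other gene of the 10 by the uncorrected t-test alone. Of 1929 values for the named genes, 76 changed sign.

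Scaling to control spots raised the median of all genes from 0.01 to 0.40, and list medians to 0.222 (TCA cycle, -0.18 relative to all genes), 0.257 (strongest peaks), 0.285 (regulators), 0.492 (chaperones), 0.475 (glutamate and lysine), 0.28 (iron), 0.362 (carriers), 0.522 (mitochondrial ribosome), 0.579 (respiratory chain), 0.379 (bound on glucose) and 0.299 (bound on glycerol only). The dimmer probe gave 0.227 (regulators) and 0.208 (chaperones). Leaving out arrays or repeats gave medians of -0.217 to 0.431 for chaperones, 0.024 to 0.319 for the mitochondrial ribosome, 0.0618 to 0.373 for the respiratory chain and -0.324 to -0.107 for the TCA cycle.

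The count of genes whose effect differed between media went from 28 to 11 (control spot scaling), 14 (dimmer probe), 57 (replicate block) and 169 (array weights), and ranged from 20 to 54 on leaving out 1 array and from 15 to 93 on leaving out 1 repeat with the block. The signal minimum in YPD and the counts of list members below 0 without repeat 4 were added after seeing the data. Where values moved, the cause was not tested.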

Other observations

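The 9 tested genes whose array identifiers end in g1 or g2, such as SAKL0C11913g2 and SAKL0F06809g1, all had a log2 change below 0 in YPD (-0.57 to -0.16), and 6 of them had strains that did not overlap, against 1.32% of all genes. None was called (smallest limma adjusted p = 0.999), and in YPGly the same 9 lay between -0.10 and 0.22. These identifiers were singled out after their values were seen, carry no name in the tables used, and may share sequence with one another.

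RGT2 (SAKL0D10450g), a glucose sensor in S. cerevisiae, was 6.0 higher in sef1Δ than in WT in repeat 4 on the log2 scale and between -0.71 and 0.31 in repeats 1 to 3. Its probe was well above background on 7 of the 8 arrays, and the gene was singled out after its values were seen.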
